A study of Mus musculus with 46 samples.

Results

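The liver transcriptome of mice on a lipid-rich diet (LD) was compared with that of mice on a carbohydrate-rich diet (CD), across every row of the gene table with enough counts to be tested: 13494 rows of 25494. The comparison asks how the liver adapts to the main source of energy in the diet. Male C57BL/6 mice, bought at 5 weeks of age and acclimated for 1 week, were fed for 20 weeks either the LD, labelled a high fat diet, which gave 60% of its energy as lipid, or the CD, labelled a low fat diet, which gave 70% of its energy as carbohydrate. The labels give no other treatment or allele for these mice. Liver RNA was sequenced from 5 mice on each diet after depletion of ribosomal RNA, 10 of the 46 libraries of the series. Whether the livers were taken from fed or fasted mice was not given in the sources used here. The RNA is that of whole liver, so that fewer cells of a type and less RNA per cell cannot be told apart in any value below.

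The liver supplies the blood with albumin, carriers, protease inhibitors and clotting factors, and a few of these transcripts fill much of its RNA. It also breaks down amino acids, makes urea and bile acids, and clears drugs and hormones with families of related enzymes. In rodents many of the latter differ between the sexes, a difference set by the rhythm of growth hormone release. Hepatocytes rarely divide in the adult, and resident macrophages (Kupffer cells), stellate cells and endothelial cells make up most of the remaining cells.

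Between 31707963 and 39012699 read pairs were counted on genes per mouse, and Alb, the transcript of albumin, headed the list of abundant transcripts on both diets. Counts were scaled to library size with TMM factors, as CPM, and tested by edgeR's quasi-likelihood test, with p-values adjusted by Benjamini and Hochberg's method over all tested rows. To be called, a row needed an adjusted p below 0.05 together with a change of more than 1.2-fold. A stricter alternative tested the change against 1.2-fold itself. Fold changes are LD over CD on the log2 scale, ± the standard error (SE), and values by mouse are listed in the order of the mouse numbers. Of the 13494 rows, 3357 (24.9%) were called, 1859 (13.8%) higher and 1498 (11.1%) lower on LD. The changes upward were larger than those downward, with a median log2 fold change of 0.68 among rows called higher and -0.44 among rows called lower, and more than a doubling in 545 against more than a halving in 165. In 2502 rows (18.5%), the CPM of the diets did not overlap. Scaled as TPM, which corrects for transcript length, and in which a fold change is on the scale of log2(TPM + 1), limma called 2227 rows higher and 740 lower, so that higher rows were 75.1% of the calls in place of 55.4%.

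Among the rows with the lowest p-values, of those with a mean of at least 5 CPM, were some of large change, such as Cidea, a lipid droplet protein (log2 fold change 5.58), and others of modest change with little variation between mice. Steap4, a metalloreductase, stood at 212, 249, 217, 215 and 224 CPM in the LD mice and at 128, 118, 122, 137 and 127 CPM in the CD mice. The diets did not overlap for this gene, and the log2 fold change was 0.82 ± 0.07 (adjusted p = 8.57e-06). Aspg, an asparaginase, had 114, 113, 117, 116 and 111 CPM on LD and 188, 197, 182, 182 and 183 CPM on CD. It varied little between the mice of a diet, and fell by a log2 fold change of -0.71 ± 0.06 (adjusted p = 7.33e-06). Other rows among the lowest p-values were Adgrv1 (log2 fold change 2.52), an adhesion G protein-coupled receptor, and Synj2 (1.03), a phosphoinositide phosphatase, which rose, and Gabbr2 (-1.17), a subunit of the GABA-B receptor, and Avpr1a (-2.46), the liver's vasopressin receptor, which fell.

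Few of the very most abundant transcripts were called. Of the 15 with the highest mean TPM, in which levels can be compared between genes, 0 were called higher and 2 lower by edgeR, and of the top 100, 16 were called higher and 23 lower, a larger share than the 13.8% and 11.1% of all tested rows. Alb itself had 61555 ± 4238 TPM (SD, n = 5) on LD and 61189 ± 4282 TPM on CD, and its log2 fold change in the counts was -0.07 ± 0.09. Also in the top 15 were Rpph1 and Rmrp, the RNA components of RNase P and RNase MRP, which are not polyadenylated and were kept by the ribosomal depletion, with 35784 and 13677 TPM on LD and 42613 and 16826 TPM on CD. The apolipoprotein transcripts Apoe, Apoc1, Apoa1 and Apoa2, the fatty acid binding protein Fabp1 and the carriers Trf, Ttr and Gc were in the top 15 too and were not called. Apoe lay close to the threshold: its adjusted p was 0.0509 with all mice and 0.0287 without LD mouse 5, and DESeq2 and limma on log2(TPM + 1) called it higher.

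**Figure D1:**
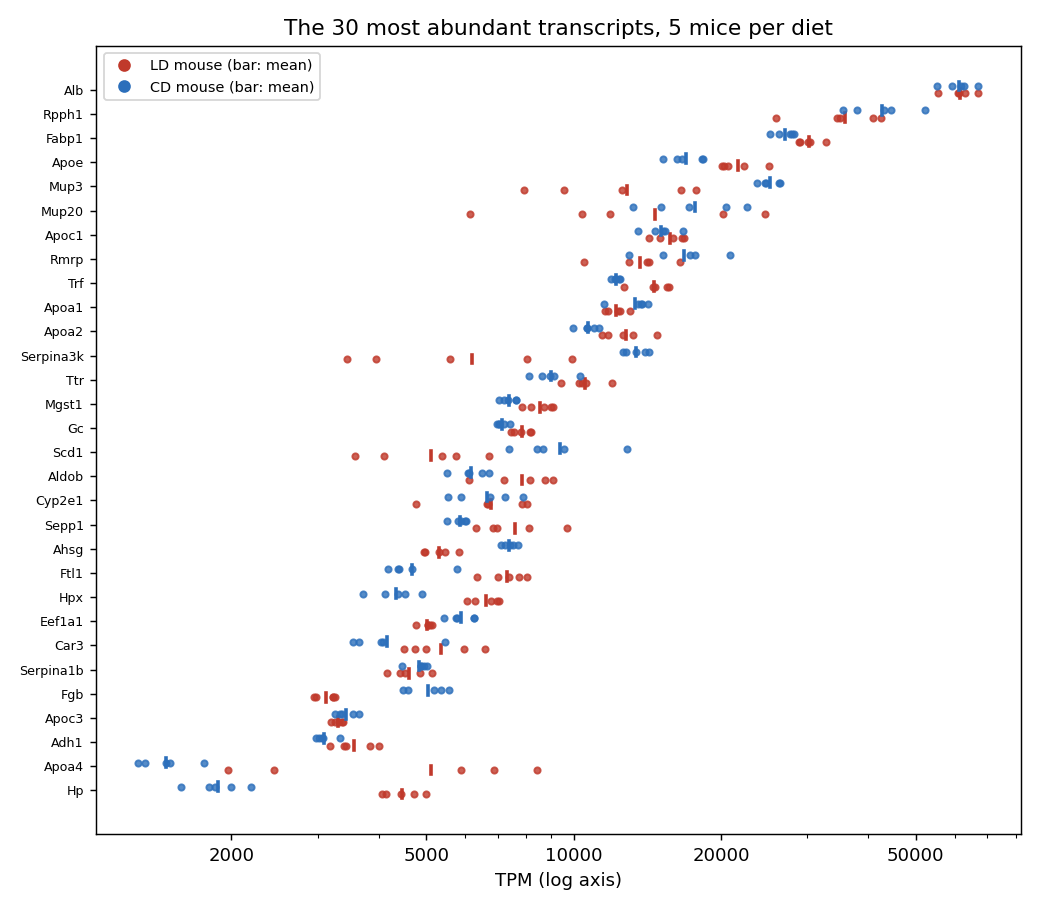
TPM of the 30 most abundant transcripts (log axis), each dot 1 mouse, red for LD and blue for CD, with the mean of the 5 mice of a diet as a bar. The mean of Mup3 was 12876 TPM on LD against 25154 TPM on CD, and that of Hp was 4469 TPM against 1882 TPM, while the dots of Alb overlap.

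The 10 most abundant transcripts took 22.2% to 25.4% of all TPM in the LD mice and 24.1% to 25.9% in the CD mice. The means were 23.3% ± 1.31 (SD, n = 5) and 24.8% ± 0.742 (SD, n = 5), and the difference of -1.52 percentage points did not pass an exact two-sided permutation test (p = 0.0635). LD mouse 2 had the highest share of its diet, and without it the difference was -2.05 (exact p = 0.00794). In the share of raw counts taken by the 10 rows with the most counts the difference was again -1.52 percentage points, with an exact p of 0.0238. Both the unit and the rows differ in that measure.

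In total, 10.1% of all TPM lay in different transcripts on the 2 diets. The 8 largest losses made up 40.9% of it and the 8 largest gains 23.3%. The largest loss was that of Mup3, a major urinary protein (a pheromone carrier that the liver secretes and the kidney excretes), at 8514, 8108, 6074, 3987 and 4219 CPM on LD and 13187, 12973, 12339, 11702 and 13355 CPM on CD. Every LD mouse lay below every CD mouse, and within LD, mice 4 and 5 were the lowest. Its log2 fold change was -1.04 ± 0.20 (adjusted p = 0.00276). Of the 19 tested rows of the family 6 were called lower and 0 higher. Mup21 fell by -1.40, Mup15 by -1.52 and Mup16 by -1.51. The call of Mup15 did not survive leaving out LD mouse 2, 3 or 4 or CD mouse 1, 3 or 5 (adjusted p = 0.0507 to 0.078), nor that of Mup16 leaving out LD mouse 3 or 5 or CD mouse 3, 4 or 5 (0.0549 to 0.0744). The family had 11 lower calls without LD mouse 1 and 4 without LD mouse 3, CD mouse 3 or CD mouse 5. DESeq2 called 11 lower, limma on log2(TPM + 1) 9 and the test against 1.2-fold 3. Serpina3k, a protease inhibitor also known as contrapsin, came next, at 8681, 7176, 4920.1, 3619 and 2768 CPM on LD and 13870.1, 12580.0, 12211, 11535 and 11597 CPM on CD (log2 fold change -1.19 ± 0.27, adjusted p = 0.00973). Losses that were called were also those of Scd1 (-0.96), a fatty acid desaturase, and Ahsg (-0.55), the plasma protein fetuin-A. The other 4 of the 8 largest losses, Rpph1, Rmrp, Mup20 and Mup7, did not pass the test, though Mup7 (log2 fold change -2.14) was called without LD mouse 1 (-3.03, adjusted p = 0.0406), by DESeq2 and by limma on log2(TPM + 1), and Rmrp (-0.37) without LD mouse 2 (adjusted p = 0.0449) or CD mouse 4 (0.043).

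Among the 8 largest gains, 4 passed. Hp, the transcript of haptoglobin, which binds free hemoglobin, stood at 2884, 3005, 3177, 3720.2 and 3093 CPM on LD and 1466, 1315, 1480.0, 1156 and 1641 CPM on CD, without overlap (log2 fold change 1.17 ± 0.10, adjusted p = 1.02e-05). Hpx, the transcript of hemopexin, which binds free heme, rose by 0.54 ± 0.09, and Ftl1, the light chain of the iron store ferritin, by 0.56 ± 0.10. Apoa4, an apolipoprotein of triglyceride-rich particles, had 1735, 2196, 6106, 5429.6 and 6807 CPM on LD and 1724, 1209, 1184, 1339 and 1392 CPM on CD (log2 fold change 1.70 ± 0.38). LD mice 1 and 2 were close to the CD range and LD mice 3, 4 and 5 were far above it, an arrangement seen again in several genes below. The gains of Apoe, Fabp1, Trf and Apoa2 did not pass the test.

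Rows were next grouped by the letters of their symbols. Among 80 families with at least 15 tested rows, that of the serpin clade A had the highest share of called rows, at 13 of 20 (65%), with 4 higher and 9 lower. The histone symbols beginning with Hist followed, with 31 of 51 (60.8%) higher and 0 lower and a median log2 fold change of 0.86. Symbols beginning with Rpl, as those of the large ribosomal subunit do, had 29 of 48 lower. Those beginning with Rps, as those of the small subunit do, had 23 of 43 lower, and 0 of either were higher. A shared beginning can take in other genes: the gene list of the ribosome held 44 large and 31 small subunit genes, with 28 and 23 lower. Small nucleolar RNAs of the Snora class, which guide pseudouridylation, had 13 of 23 lower and 0 higher. They lie within introns of host genes, whose unspliced RNA can give reads there. Of the Kdm genes, which encode histone demethylases, 9 of 17 were lower and 0 higher, and of the Zbtb genes, which encode zinc finger transcription factors, 11 of 40 were lower and 0 higher. Solute carriers (Slc), with 255 rows, had 38 higher and 31 lower, or 27.1% called, close to the 24.9% of all rows. The families with the lowest shares of calls were the mitochondrial ribosomal proteins Mrps (0 of 29) and Mrpl (2 of 48).

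**Figure D2:**
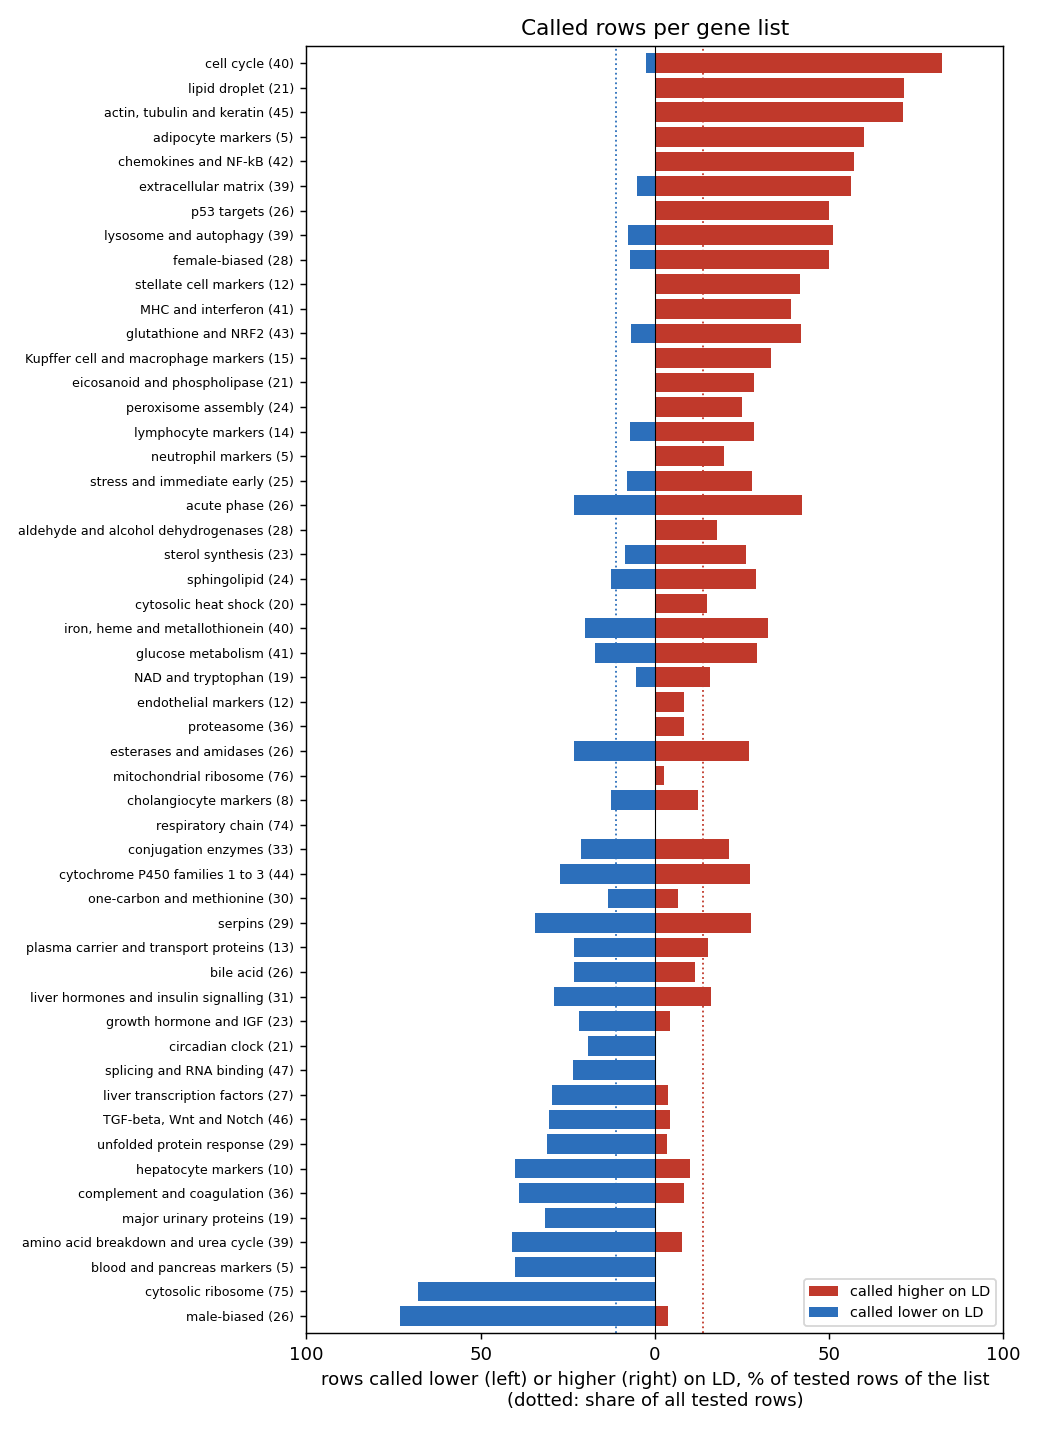
Share of the tested rows of each of 52 gene lists that were called higher (red, to the right) or lower (blue, to the left) on LD, with the number of tested rows after each name and the shares over all tested rows, 13.8% and 11.1%, as dotted lines. The cell cycle list reaches furthest to the right, with 33 of 40 rows, and the male-biased and cytosolic ribosome lists furthest to the left, with 19 of 26 and 51 of 75.

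Among secreted plasma proteins, calls went in both directions. Of 13 carrier and transport proteins, 2 were called higher, 3 lower and 8 in neither direction. In fits without 1 mouse 1 to 3 were higher, and against 1.2-fold 1 was higher and 1 lower. Of 26 genes of the acute phase, the change of plasma proteins in inflammation, 11 were called higher and 6 lower. The median was 0.03 against -0.00187 over all rows. The list held 19 effector genes, with 10 higher, 4 lower and a median of 0.353. Its 7 pathway genes had 1 higher, 2 lower and a median of -0.0924. Lcn2, which binds the siderophores of bacteria, rose from 1.24, 1.15, 2.15, 0.540 and 1.83 CPM in the CD mice to 24.1, 23.2, 30.04, 34.1 and 28.2 CPM in the LD mice (log2 fold change 4.32 ± 0.26, adjusted p = 7.15e-06). Saa1, a serum amyloid A protein, had 115, 93.5, 89.97, 92.8 and 85.7 CPM on LD and 12.9, 13.2, 18.7, 7.59 and 13.2 CPM on CD. Its neighbor Saa2 rose by 3.32, and since they are close copies, the counting of reads could have split them. The orosomucoid Orm3 (3.35) rose as well. In the other direction went the fibrinogen chains Fgb (-0.76) and Fgg (-0.71), with Fgb at 2908, 2967, 2703, 3082 and 2446 CPM on LD and 5219, 4969, 4213, 5172 and 4371 CPM on CD. Hamp, which encodes hepcidin, the hormone that limits iron export, fell from 244, 209.7, 316, 335 and 304 CPM in the CD mice to 64.3, 151.4, 33.7, 77.3 and 31.1 CPM in the LD mice (log2 fold change -1.98 ± 0.44, adjusted p = 0.0104).

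Of 36 complement and coagulation factors, 14 were called lower (8 when the change was tested against 1.2-fold), 3 higher and 19 in neither direction. C8b, a subunit of the membrane attack complex, had 162, 152, 78.8, 59.3 and 49.7 CPM on LD and 422, 411, 391, 432 and 318 CPM on CD, and C6 (-0.87), another subunit of it, and the coagulation factor F7 (-0.72) fell too. Cfd, or adipsin, a complement protease made mainly by adipocytes, rose by 5.44 from a mean of 0.542 CPM, a fitted change that was 6.03 without CD mouse 3. Among the serpins, 8 of 29 were called higher and 10 lower. The antitrypsin gene Serpina1c (-0.86) and the protease inhibitor gene Serpine2 (-0.79) fell. Serpina3g rose by 0.87, and its call was lost without LD mouse 1 (adjusted p = 0.0524), LD mouse 2 (0.0528), CD mouse 3 (0.0509) or CD mouse 4 (0.0605). The count of serpins called higher was 4 without CD mouse 3 and 3 against 1.2-fold. The antitrypsin genes and the major urinary protein genes are multigene families of near-identical copies, among which the counting could have split reads.

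The male-biased list had the highest share of lower calls, with 19 of 26 tested genes lower, 1 higher and a median of -1.22. Egfr, the receptor for epidermal growth factor, fell from 904, 1107, 909, 933 and 624 CPM on CD to 219.8, 290.0, 158, 71.7 and 87.1 CPM on LD (log2 fold change -2.44 ± 0.39, adjusted p = 0.002). Cyp7b1, an oxysterol hydroxylase, fell by -1.31 and Selenbp2, a selenium-binding protein, by -1.51. The exception was Fmo5, a flavin-containing monooxygenase, which rose by 0.49. Against 1.2-fold, 19 of the list were called lower and 0 higher, so that Fmo5 was not called. In the female-biased list, 14 of 28 tested genes were called higher and 2 lower, and the median was 0.68. Cyp2b9, a cytochrome P450, was at 0.765, 0.496, 1.87, 0.413 and 0.757 CPM on CD and at 115, 35.5, 232, 417 and 184 CPM on LD. Lpl, lipoprotein lipase, rose by 0.91, and Slc22a27, an organic anion transporter gene, by 4.08. The 2 genes of the female-biased list called lower were Cyp2c69 (-5.15) and Cyp2c40 (-4.00), and 12 were called in neither direction. All the mice were male, so that no value here compares the sexes. In the growth hormone and IGF list, 5 of 23 genes were called lower and 1 higher, or 26.1%, close to the 24.9% of all rows. DESeq2 called 9 of them lower. Stat5a, which carries the growth hormone signal, rose by 0.49. Against 1.2-fold, 4 of this list were called lower and 0 higher, so that Stat5a was not called. Igf1, the hormone the liver makes in response to growth hormone, had 379, 358, 283, 264 and 265 CPM on LD and 442, 489.7, 546, 513 and 449.8 CPM on CD, without overlap (log2 fold change -0.66 ± 0.11), and Lifr, a cytokine receptor, fell by -1.29 and Igfbp2, an IGF binding protein, by -1.79.

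**Figure D3:**
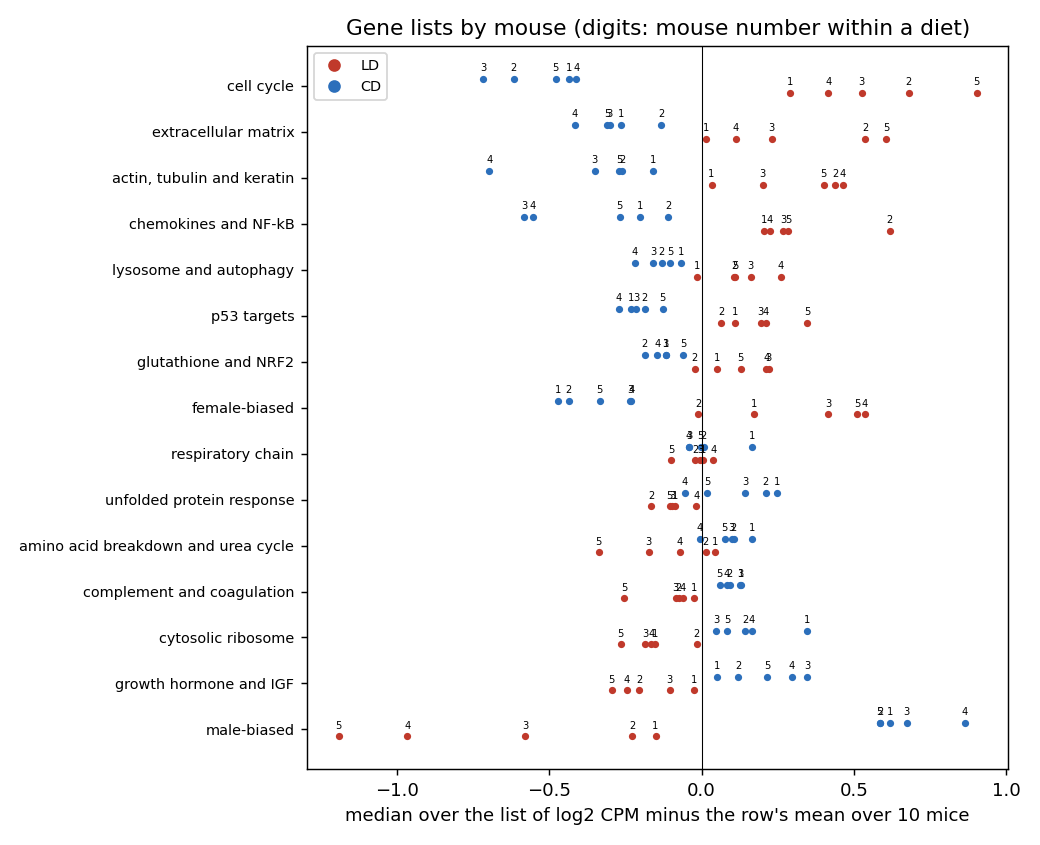
Median over each of 15 gene lists of log2 CPM minus the mean of the row over the 10 mice, each dot 1 mouse with its number, red for LD and blue for CD. The male-biased medians run from -1.19 in LD mouse 5 to -0.15 in LD mouse 1, while the CD mice lie between 0.58 and 0.86.

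Of 39 genes of amino acid breakdown and the urea cycle, 16 were called lower, 3 higher and 20 in neither direction. The count of lower calls was 10 without LD mouse 3, and 4 when the change was tested against 1.2-fold. Cps1, the first enzyme of the urea cycle, stood at 3560.4, 3822, 2050.4, 2303 and 2050.0 CPM on LD and at 7425, 8342, 6914, 6489.7 and 5575 CPM on CD (log2 fold change -1.33 ± 0.19, adjusted p = 0.000545). Afmid, of tryptophan breakdown, fell by -0.88. Tat, tyrosine transaminase, fell by -0.88. Its adjusted p of 0.0254 rose to between 0.0512 and 0.0614 when any of LD mice 3, 4 and 5 or CD mice 1, 2 and 3 was left out. Gpt2, an alanine transaminase, and Agxt2 rose by 0.62 and 0.64. In one-carbon metabolism, where 2 of 30 genes were higher and 4 lower (20% called, below the 24.9% of all rows, and 0 lower against 1.2-fold), Gnmt, which spends S-adenosylmethionine on glycine, had 1421, 1193, 936, 927 and 628 CPM on LD and 1723, 1654, 1452, 1719.8 and 1646 CPM on CD. The mitochondrial folate enzyme Mthfd1l rose from 1.18, 1.31, 1.56, 1.46 and 1.106 CPM to 3.46, 5.41, 6.21, 10.1 and 8.28 CPM (log2 fold change 2.33 ± 0.26, adjusted p = 6.35e-05).

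Genes of glucose metabolism went both ways, 12 of 41 higher and 7 lower, or 6 and 3 against 1.2-fold. Of 20 glycolysis genes 9 were higher and 2 lower (median 0.304), and of 6 gluconeogenesis genes 0 and 2 (median -0.234). Of 15 genes of glycogen and fructose, 3 were higher and 3 lower. G6pc, the last step of glucose output, had 289, 190.1, 253, 241 and 286 CPM on LD and 567, 633, 884, 432 and 372 CPM on CD, and fell by -1.20 ± 0.22. Ppargc1a, a coactivator of gluconeogenic genes, fell by -0.73, while Hk2 (1.47), a hexokinase scarce in hepatocytes, Pdk4 (1.107), which restrains pyruvate oxidation, and Treh (2.67), trehalase, rose. Irs2, a docking protein of the insulin receptor, fell from 13.8, 16.03, 18.4, 18.01 and 13.5 CPM to 7.17, 5.91, 7.42, 5.76 and 4.95 CPM without overlap (log2 fold change -1.35 ± 0.13). Among secreted hormones, Gdf15, a cytokine of cell stress, had 2.90, 11.02, 20.2, 14.5 and 14.3 CPM on LD and 4.27, 3.11, 1.48, 2.29 and 4.45 CPM on CD (log2 fold change 2.01 ± 0.49). The ranges overlapped, since LD mouse 1 lay within the CD range and the other LD mice above it. Fgf21, a hormone of fasting and nutrient stress, rose by 1.36 with an adjusted p of 0.0264, and its call was lost without LD mouse 3 (0.0597), 4 (0.0544) or 5 (0.0543) or CD mouse 2 (0.0656) or 4 (0.0509). Inhbe, which encodes the activin E subunit, rose by 1.01, and its call was lost without LD mouse 3 (adjusted p = 0.078), 4 (0.0742) or 5 (0.068) or CD mouse 1 (0.0681), 2 (0.0721) or 3 (0.0752). The activin subunit Inhba (-1.32) and its antagonist follistatin, Fst (-1.31), fell. Of 23 genes of sterol synthesis 6 were higher, among them Msmo1 (0.81), a sterol oxidase, and 2 lower. In the bile acid list 3 of 26 were higher and 6 lower: the transporter Abcc3, which exports conjugates to the blood, rose by 1.01, and Slc10a1, which takes bile acids up, fell by -1.09.

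Enzymes that handle foreign compounds went both ways. Of 44 tested genes of P450 families 1 to 3 and their partners, 12 were called higher and 12 lower, or 54.5% against 24.9% of all rows. Among 33 conjugation enzymes 7 were higher and 7 lower, and among 26 esterases and amidases 7 were higher and 6 lower. Against 1.2-fold these were 3 and 4, and 1 and 5. The lower calls among the conjugation enzymes ran from 4 to 9 in fits without 1 mouse, and DESeq2 called 10 lower. In the glutathione and NRF2 list 18 of 43 genes were called higher (10 against 1.2-fold), 3 lower and 22 in neither direction. Gstm3, a glutathione transferase, stood at 33.4, 31.4, 136, 133 and 149.6 CPM on LD and 18.4, 17.96, 13.5, 27.3 and 25.8 CPM on CD, where LD mice 1 and 2 were again the lowest of their diet (log2 fold change 2.23 ± 0.52). Gsta1 rose by 5.27 from a mean of 0.195 CPM, and Nqo1, a quinone reductase, rose by 1.37. Gstp1 (-0.73) was the abundant transferase that fell. In the list of iron, heme and metal genes, 13 of 40 were higher and 8 lower, or 7 and 5 against 1.2-fold. The metallothionein Mt1, which binds zinc and copper, had 21.2, 15.1, 22.03, 26.3 and 21.3 CPM on LD and 7.61, 4.36, 6.03, 16.2 and 7.16 CPM on CD, and CD mouse 4 lay above LD mouse 2 (log2 fold change 1.36 ± 0.32). The zinc importer Slc39a4 rose by 1.60, and Bmp6, a regulator of hepcidin, fell by -1.05.

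Calls among the genes of the cytosolic ribosome were all downward. Of 75 tested genes 51 were called lower, 0 higher and 24 in neither direction, with a median of -0.31. Rpl27a had 108, 116, 104, 103 and 93.9 CPM on LD and 178, 145, 146, 149 and 150.1 CPM on CD (log2 fold change -0.55 ± 0.08), and Rps18 had 211, 229, 199, 197 and 173 CPM and 316, 276, 262, 283 and 258 CPM (-0.47 ± 0.08). Without CD mouse 1, 35 of the 75 were called lower. Limma on log2(TPM + 1), which differs in unit and test, called 27 lower, with a median of -0.23, DESeq2 called 51, and 3 were called when the change was tested against 1.2-fold. Ribosomal protein genes have many processed copies in the genome, which can take up their reads. Other housekeeping lists differed from it. Of 74 respiratory chain genes, 0 were called by edgeR in either direction, 10 had an unadjusted p-value under 0.05, DESeq2 called 0 and limma on log2(TPM + 1) called 1, and the median was -0.04. Mitochondrial ribosomal proteins had 2 of 76 called, and proteasome subunits 3 of 36.

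Of 29 genes of the unfolded protein response, which raises the folding capacity of the endoplasmic reticulum, 9 were lower and 1 higher, and 2 were lower against 1.2-fold. Of the 19 chaperones among them 6 were lower and 0 higher, and of the 10 sensors 3 were lower and 1 higher. Hspa5, the main chaperone of that compartment, fell from 1032, 1037, 1096, 829 and 844 CPM to 678, 821, 635, 791 and 689 CPM, with the highest LD mouse just below the lowest CD mouse (log2 fold change -0.42 ± 0.10). Creld2 (-0.64), Syvn1 (-0.57), a ubiquitin ligase, and Ern1 (-0.80), which encodes the sensor IRE1, fell as well. Of 47 genes of splicing and RNA binding, 11 were lower and 0 higher. The lower calls numbered 5 without CD mouse 4, 3 on the log2(TPM + 1) scale and 0 against 1.2-fold. Of 46 genes of the TGF-beta, Wnt and Notch pathways, 14 were lower (8 against 1.2-fold) and 2 higher, among them the activin receptor gene Acvr2b (-1.46) and Tcf7l2 (-0.61), a transcription factor of the Wnt pathway, which fell.

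Of 45 genes on the cytoskeletal list, 32 were called higher, 0 lower and 13 in neither direction, with a median of 0.62. Against 1.2-fold, 19 were called higher. The list held 18 filament genes, 10 of them higher (median 0.455), and 27 genes of binding proteins, 22 of them higher (median 0.812). Anxa2, which binds membranes and actin, stood at 62.1, 77.9, 119.5, 149.5 and 166 CPM on LD and 21.5, 21.8, 20.8, 16.4 and 24.04 CPM on CD (log2 fold change 2.46 ± 0.27, adjusted p = 0.00026). Tubb2a, a beta-tubulin, had 165, 168, 391.6, 411 and 463 CPM and 101, 80.2, 87.9, 28.9 and 87.4 CPM, and Krt8, the keratin of hepatocytes and bile duct cells, 308, 388, 423, 446 and 471 CPM and 224, 215, 187, 152 and 203 CPM. In each of the 3 genes the diets did not overlap, and LD mouse 1 was the lowest of its diet. In the extracellular matrix list 22 of 39 were higher (13 against 1.2-fold) and 2 lower. Col1a1, the alpha 1 chain of type I collagen, had 25.03, 36.996, 38.5, 29.5 and 55.5 CPM and 10.005, 16.9, 12.04, 8.76 and 13.5 CPM (log2 fold change 1.60 ± 0.23), and Mmp12, macrophage elastase, rose from 0.350, 0.444, 0.614, 0.413 and 0.524 CPM to 1.49, 6.92, 13.5, 13.01 and 22.2 CPM. Fn1, fibronectin, which hepatocytes secrete to the plasma in quantity, was abundant and fell, from 1061, 1317, 1814, 1661 and 1602 CPM to 1027, 697, 862, 859 and 824 CPM.

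Calls in the immune and lysosomal lists were mainly upward, and some markers of nonparenchymal cells were called higher too. In the chemokine and NF-kB list, 24 of 42 were called higher and 0 lower, in the MHC and interferon list 16 of 41 and 0, and in the lysosome and autophagy list 20 of 39 and 3. Against 1.2-fold the higher calls numbered 20, 6 and 9. In the lysosome and autophagy list, 18 of the 27 hydrolases and related genes were higher, and 2 of the 12 autophagy genes. Ccl2, which attracts monocytes, had 1.92, 2.34, 2.08, 2.18 and 2.52 CPM on LD and 0.478, 0.392, 0.279, 0.286 and 0.786 CPM on CD. Ubd, a ubiquitin-like modifier induced by cytokines, rose from 0.733, 0.496, 0.642, 0.191 and 0.524 CPM to 4.25, 5.54, 9.31, 6.82 and 11.5 CPM (log2 fold change 3.84 ± 0.34). Gpnmb, a glycoprotein of lipid-laden macrophages, had 3.27, 6.04, 10.6, 10.3 and 17.5 CPM on LD and 0.319, 0.313, 0.503, 0.381 and 0.524 CPM on CD. Of 15 Kupffer cell and macrophage markers, 5 were called higher, namely Gpnmb, Trem2 (2.55), Itgax (2.48), Ccr2 (1.81) and Cd68 (0.96), and 0 lower. The Kupffer cell receptor Clec4f was not called and had 165, 260.1, 165, 133 and 74.8 CPM on LD and 189, 154, 121, 113 and 147 CPM on CD. The summed level of the 15 was 736 to 1609 TPM on LD and 468 to 852 TPM on CD, ranges that overlap.

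Other marker lists gave the following. Stellate cell markers had 5 of 12 higher (3 against 1.2-fold), and their sum was 361 to 596 TPM on LD and 297 to 341 TPM on CD. Endothelial markers had 1 of 12 higher, with sums of 297 to 411 TPM and 320.3 to 366 TPM. Lymphocyte markers had 4 of 14 higher (2 without LD mouse 2 or CD mouse 3, 6 without LD mouse 3, 1 against 1.2-fold) and 1 lower, the T cell marker Cd4. Their sums were 26.5 to 39.4 TPM on LD and 11.2 to 13.4 TPM on CD. Most of the difference between the sums was that of Themis, with a mean of 13.6 TPM on LD and 0.574 TPM on CD. The call with the largest fold change was that of Themis, a T cell signalling protein, at 42.1, 36.6, 58.8, 35.1 and 44.4 CPM on LD and 1.53, 0.966, 2.43, 1.21 and 3.55 CPM on CD. Neutrophil markers summed to 16.5 to 313 TPM on LD and 6.95 to 11.3 TPM on CD. The highest LD value was that of mouse 2, in which the neutrophil proteins S100a8 and S100a9 had 26.4 and 38.5 CPM, against at most 2.18 and 2.46 CPM in any other LD mouse. S100a8 was called higher (log2 fold change 3.67, 1.65 without LD mouse 2), and the call was lost in each fit without 1 CD mouse (adjusted p = 0.0794 to 0.0921), by limma on log2(TPM + 1), and in the tests without a filter or against 1.2-fold. DESeq2 and edgeR with a replicate block did not call S100a8 either. S100a9 was not called with all mice and was called without LD mouse 2 (log2 fold change 1.08, adjusted p = 0.00541) and without the robust option of edgeR. The S100a8 gene was also on the cytoskeletal list, where it is 1 of the 32 called higher. Cholangiocyte markers had 1 of 8 higher (Spp1, 1.98, which other cells also make) and 1 lower, with sums of 53.5 to 152 TPM on LD and 22.0 to 38.3 TPM on CD, without overlap. Krt7 and Krt19, keratins of the bile duct, were not called. Hepatocyte markers had 1 of 10 higher and 4 lower, with a median of -0.22 (-0.136 by limma on log2(TPM + 1)) and sums, led by Alb, of 93850 to 106800 TPM on LD and 92840 to 107000 TPM on CD. Of 10 adipocyte markers 5 were tested, and 3 were called higher, Cfd, Fabp4 (1.41) and Lpl, with a median of 0.91 over the 5 (0.606 over those with at least 10 counts in every mouse). Of those not tested, Lep and Plin1 had 0 counts and Adipoq 9 over all 10 mice. The summed level of the list, 5808 to 8057 TPM on LD and 4677 to 7719 TPM on CD, was mostly that of Car3, which was not called. The part of these cells in the gene lists above was not tested.

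Genes of the cell cycle had the highest share of called rows of any list, with 33 of 40 higher, 1 lower and a median of 1.19. By limma on log2(TPM + 1), a scale that lowers the changes of scarce transcripts, the median was 0.653. Top2a, which untangles replicated chromosomes, had 11.99, 13.1, 10.9, 11.3 and 14.3 CPM on LD and 4.05, 4.72, 2.57, 4.67 and 2.21 CPM on CD (log2 fold change 1.76 ± 0.19, adjusted p = 6.35e-05). Mcm6, a subunit of the replicative helicase, had 13.8, 26.7, 21.5, 16.3 and 20.8 CPM and 6.28, 6.24, 5.64, 5.27 and 6.64 CPM (1.72 ± 0.16). The mitotic genes were scarce: Ccnb1, cyclin B1, had 1.06, 1.84, 1.49, 1.52 and 2.74 CPM on LD and 0.701, 0.235, 0.279, 0.349 and 0.262 CPM on CD. For these genes every LD mouse exceeded every CD mouse. The exception that fell was Tk1, thymidine kinase (-0.71 ± 0.17), at 12.2, 13.5, 9.34, 8.89 and 7.63 CPM on LD and 16.1, 15.3, 16.7, 22.9 and 13.6 CPM on CD. In fits without 1 mouse, 31 to 33 of the 40 were called higher. The p53 target list had 13 of 26 higher (8 against 1.2-fold) and 0 lower, and Cdkn1a, an inhibitor of cyclin-dependent kinases, had 1.73, 1.23, 3.63, 3.43 and 5.51 CPM on LD and 0.828, 0.548, 0.531, 0.508 and 0.931 CPM on CD, highest in LD mouse 5.

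The histone genes that rose with them are mostly those expressed in S phase. Their transcripts lack a poly(A) tail and are kept by ribosomal depletion. Hist1h3g, an H3 gene, rose from a mean of 0.159 ± 0.0571 CPM (SD, n = 5) to 0.999 ± 0.264 CPM (log2 fold change 2.63 ± 0.32). Histone genes lie in clusters of similar copies, and reads could have been split between them.

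Promoter sequence is shown for 5 genes that were called higher, from the cell cycle list and the histone family, in which 20 of 51 tested rows were not called. They were chosen after their windows, and those of other genes, had been read, so that what they share is no evidence about the lists. The windows run from 150 bases before the start site to 5 after it and are the first window listed for the gene in RefSeq (GRCm38.p6). Capitals mark CCAAT, the CCAAT box, and, in the first 4, TTTGAA, the core of the cell cycle genes homology region, on either strand. The window of Ccnb1 holds no TTTGAA. In the sequence of Hist1h3g they mark CCAAT and would mark TATAAA, the TATA box, which is not in it. All are read 5′ to 3′ in the direction of the gene: Cdk1 at chr10:69352908-69353062 (minus strand), Ccnb1 at chr13:100786482-100786636 (minus strand), Top2a at chr11:99024185-99024339 (minus strand), Cdc20 at chr4:118437339-118437493 (minus strand) and Hist1h3g at chr13:23535268-23535422 (plus strand).
Cdk1: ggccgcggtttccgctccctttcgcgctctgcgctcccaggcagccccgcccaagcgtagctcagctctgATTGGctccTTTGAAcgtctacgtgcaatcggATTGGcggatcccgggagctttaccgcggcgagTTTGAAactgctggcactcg
Ccnb1: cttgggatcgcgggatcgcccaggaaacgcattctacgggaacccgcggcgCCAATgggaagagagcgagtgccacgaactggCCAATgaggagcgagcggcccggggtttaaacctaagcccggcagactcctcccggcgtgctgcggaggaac
Top2a: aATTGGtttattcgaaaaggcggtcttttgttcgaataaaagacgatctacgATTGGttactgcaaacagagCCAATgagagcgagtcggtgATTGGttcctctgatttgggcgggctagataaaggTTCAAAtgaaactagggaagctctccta
Cdc20: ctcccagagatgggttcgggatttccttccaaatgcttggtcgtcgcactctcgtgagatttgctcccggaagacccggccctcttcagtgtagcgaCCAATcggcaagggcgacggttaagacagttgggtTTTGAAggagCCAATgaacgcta
Hist1h3g: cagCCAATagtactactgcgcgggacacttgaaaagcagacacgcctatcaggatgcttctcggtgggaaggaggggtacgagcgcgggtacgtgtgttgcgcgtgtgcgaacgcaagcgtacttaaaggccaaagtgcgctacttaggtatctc
In the promoters of Cdk1 and Ccnb1, the 2 CCAAT boxes begin 32 bases apart, and in that of Top2a the 3 nearest the start site are spaced by 20 bases.

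Over windows of 300 bases, from 250 before the start site to 50 after it, 24 of the 32 cell cycle genes with a window (75%) held CCAAT on either strand, and 14 (43.8%) held TTTGAA, against 39% and 12.4% of the 10730 tested rows with a window. Among the 46 histone genes with a window, 38 (82.6%) held CCAAT and 27 (58.7%) TATAAA, against 39% and 7.77%. In the chemokine and NF-kB list, 7 of 27 windows (25.9%) held GGANTTTCC, an NF-kB motif, against 1.31%, and in the acute phase list 11 of 23 (47.8%) held TTGCNNAA, a C/EBP motif, against 8.8%. The motifs named so far were picked from 11 searched because they were more frequent in a list than in all windows. Of the others, the E-box CACGTG was in 3.12% of the cell cycle windows against 10.1% of all, the E2F motif TTTGGCGC in 12.5% against 1.04%, and the STAT motif TTCCNGGAA in 0% of the male-biased windows against 1.29%. CCAAT was more frequent still in the sterol synthesis list, at 13 of 15 windows (86.7%), of which 6 of 23 genes were called higher. In the other lists searched, TTTGAA ran from 0% (acute phase) to 47.8% of windows (histone genes), with 33.3% in the male-biased and 28.6% in the female-biased list. The C/EBP motif ran from 4.76% (p53 targets) to 33.3% (female-biased) outside the acute phase list, with 26.1% in the histone genes. Matches of different motifs were counted separately, also where they overlapped. A match is a description of the sequence and is not a bound site. Of the windows of all rows called higher, 40.9% held CCAAT, 16.4% TTTGAA, 11.1% TATAAA, 9.72% the C/EBP motif and 2.16% the NF-kB motif.

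H3K27ac, a histone mark of active promoters and enhancers, had been mapped in other liver samples of the same diets, 3 per diet. The lists held 53821 to 56987 loci per sample on LD and 48156 to 51608 on CD, covering 150 to 160 Mb and 140 to 145 Mb. Most start sites were marked on both diets: within 1 kb of the start, all 6 samples had a locus at 79.2% of the rows called higher, 88.6% of the rows called lower and 85.8% of all tested rows. A locus in all 3 LD samples and 0 CD samples was found at 33 of 1859 rows called higher (1.78%), 1 of 1498 called lower (0.0668%) and 67 of all 13494 (0.497%). The 5 with the largest fold change among the 33 were Cidea (5.58), Gsta1, B430212C06Rik (4.31), Slc22a27 and Ubd. A locus on CD alone was found at 4 rows called lower (0.267%), Acacb, Prok1, Slc22a28 and Slc2a5 (whose call was lost without LD mouse 5, adjusted p = 0.0524, or CD mouse 4, adjusted p = 0.0568), at 1 called higher, Mnda, and at 9 of all. No test was made of these shares, and LD samples had more loci throughout.

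The spread between mice was compared within each diet. The distance of a mouse, the median over all rows of the difference of its log2 CPM from the mean of the other 4 mice of its diet, came to 0.139, 0.163, 0.104, 0.173 and 0.149 in the LD mice and to 0.152, 0.114, 0.141, 0.151 and 0.116 in the CD mice. The means were 0.146 ± 0.0267 (SD, n = 5) and 0.135 ± 0.0186 (SD, n = 5), and an exact two-sided permutation test over 252 splits gave p = 0.5. With 1 mouse left out, the difference between the means, 0.011, ran from 0.000107 without CD mouse 5 to 0.0289 without LD mouse 3 (exact p = 0.0714). The SD of log2 CPM was larger on LD in 7552 of 13494 rows (56%), with medians of 0.173 and 0.162. A test of each row's spread by limma on absolute deviations called 0 rows, with 1196 rows (8.86%) at an unadjusted p-value under 0.05 and a lowest adjusted p of 0.197. That test can find little with 5 mice: of 200 simulated rows with 6 times the SD on LD it called 3. Of the other simulated rows, with the same SD on both diets, 7.32% had an unadjusted p-value under 0.05 in that test. The simulation otherwise used a single SD for all rows, unlike the data. With 1 mouse left out it called from 0 rows (without CD mouse 4 or 5) to 68 (without LD mouse 3).

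**Figure D4:**
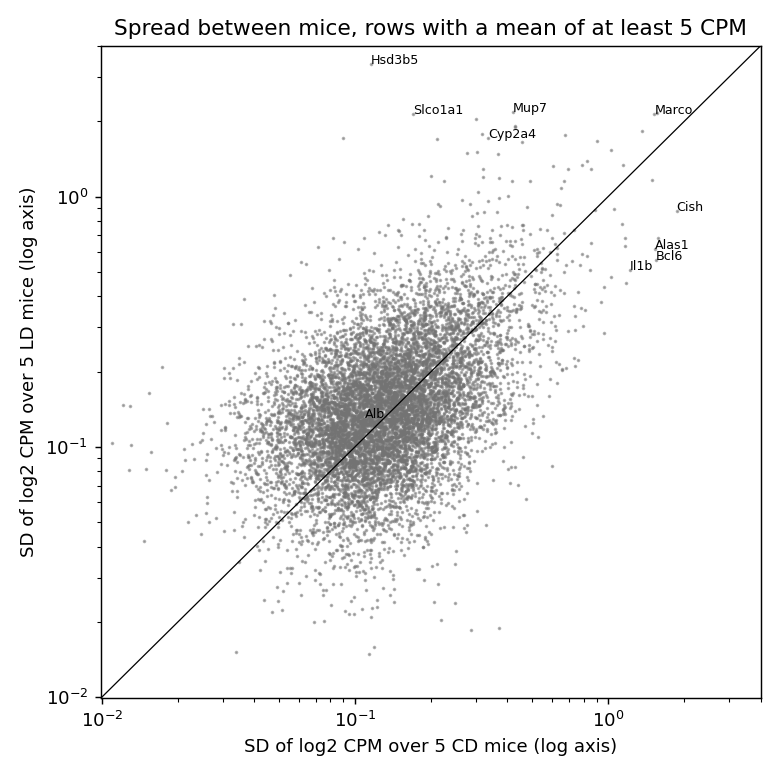
SD of log2 CPM over the 5 LD mice against that over the 5 CD mice, both on log axes, for the 9561 rows with a mean of at least 5 CPM, with the line of equal SD. Hsd3b5 has an SD of 3.37 on LD against 0.116 on CD, and Cish has 0.878 against 1.86.

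Of the 10 rows with the widest spread on LD among those with a mean of at least 5 CPM over the 10 mice, 3 were on the male-biased list (Hsd3b5, Mup7 and Slco1a1). Hsd3b5, a steroid dehydrogenase of male liver, had 18.4, 29.2, 1.61, 0.243 and 0.112 CPM in the LD mice and 429, 393, 408, 442 and 360.4 CPM in the CD mice. All LD mice were far below the CD mice, and LD mice 1 and 2 kept the most. The log2 fold change of -5.34 ± 1.21 was -6.30 without LD mouse 2. Slco1a1, an organic anion transporter, had 401, 374, 136, 16.2 and 27.2 CPM on LD and 1072, 1184, 1035, 968 and 863 CPM on CD. The diets did not overlap, yet the log2 fold change of -2.42 ± 0.86 did not pass (adjusted p = 0.0678), though DESeq2, limma on log2(TPM + 1) and edgeR without the robust option called it. Serpina1e was likewise highest in LD mice 1 and 2, with 704, 1357, 211, 66.8 and 53.5 CPM on LD and 2379, 2266, 1918, 2175 and 1417 CPM on CD, and was not called with all mice by edgeR. It was called when LD mouse 2 was left out (log2 fold change -2.97, adjusted p = 0.038), and also by DESeq2, by limma on log2(TPM + 1) and without the robust option of edgeR. Cyp2a4, a steroid hydroxylase of female liver, ran the other way, with 3.33, 3.95, 23.7, 34.6 and 38.2 CPM on LD and 0.669, 0.600, 0.978, 0.603 and 0.495 CPM on CD. Of the variance of the LD mice around their mean, 50.1% lay along a single principal component of the rows with at least 5 CPM, on which LD mice 1 and 2 lay on one side (14.4 and 18.2) and LD mice 3, 4 and 5 on the other (-3.76, -15.8 and -12.9). The corresponding share for the CD mice was 43%. Marco, a scavenger receptor of macrophages, was also highest in LD mice 1 and 2, with 43.02, 71.7, 6.08, 5.94 and 2.07 CPM on LD, and on CD it ranged widely too, with 25.7, 22.1, 5.20, 3.33 and 36.6 CPM.

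Of the 10 rows with the widest spread on CD, again with a mean of at least 5 CPM, Marco, Lars2 and Mir6236 were also among the 10 on LD. Cish, a suppressor of cytokine signalling that responds to growth hormone, had 1.15, 1.57, 3.66, 25.6 and 11.2 CPM in the CD mice and 5.76, 1.59, 4.50, 7.55 and 2.77 CPM in the LD mice, and Socs2, of the same family, had 9.75, 9.95, 7.68, 52.2 and 21.3 CPM and 11.8, 5.91, 13.3, 5.37 and 3.69 CPM. Onecut1, a liver transcription factor, had 3.79, 3.73, 6.17, 41.5 and 22.7 CPM on CD. In these 3 genes CD mice 4 and 5 were the highest. Bcl6, a transcriptional repressor, had the opposite order on CD, with 55.2, 53.6, 47.7, 10.2 and 5.73 CPM, and 13.3, 12.4, 7.04, 7.82 and 5.34 CPM on LD. With all mice its log2 fold change of -1.90 ± 0.66 did not pass (adjusted p = 0.0628), and it was called without CD mouse 4 (adjusted p = 0.0446) or CD mouse 5 (adjusted p = 0.0183), and by DESeq2. Alas1, the first enzyme of heme synthesis, had 99.98, 84.6, 449, 1006 and 399 CPM on CD and 617, 617, 680.1, 489 and 239 CPM on LD. Il1b, an inflammatory cytokine, had 10.6, 7.44, 2.04, 1.68 and 8.21 CPM on CD and 3.19, 6.49, 3.85, 2.46 and 4.17 CPM on LD, and was lowest in CD mice 3 and 4. Fabp5, a fatty acid binding protein, varied widely between CD mice, with 287, 233, 56.8, 222 and 110.1 CPM, and was nonetheless far lower in each LD mouse, with 7.66, 12.9, 9.90, 9.13 and 11.2 CPM (log2 fold change -4.16 ± 0.46, adjusted p = 0.000367). Arrdc4, an arrestin-like gene that responds to glucose, had nearly the same mean on both diets, 16.2 and 16.8 CPM, with a narrow range on LD, 18.2, 15.1, 14.5, 17.1 and 16.4 CPM, and a wider one on CD, 21.9, 20.5, 20.7, 10.2 and 10.7 CPM.

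**Figure D5:**
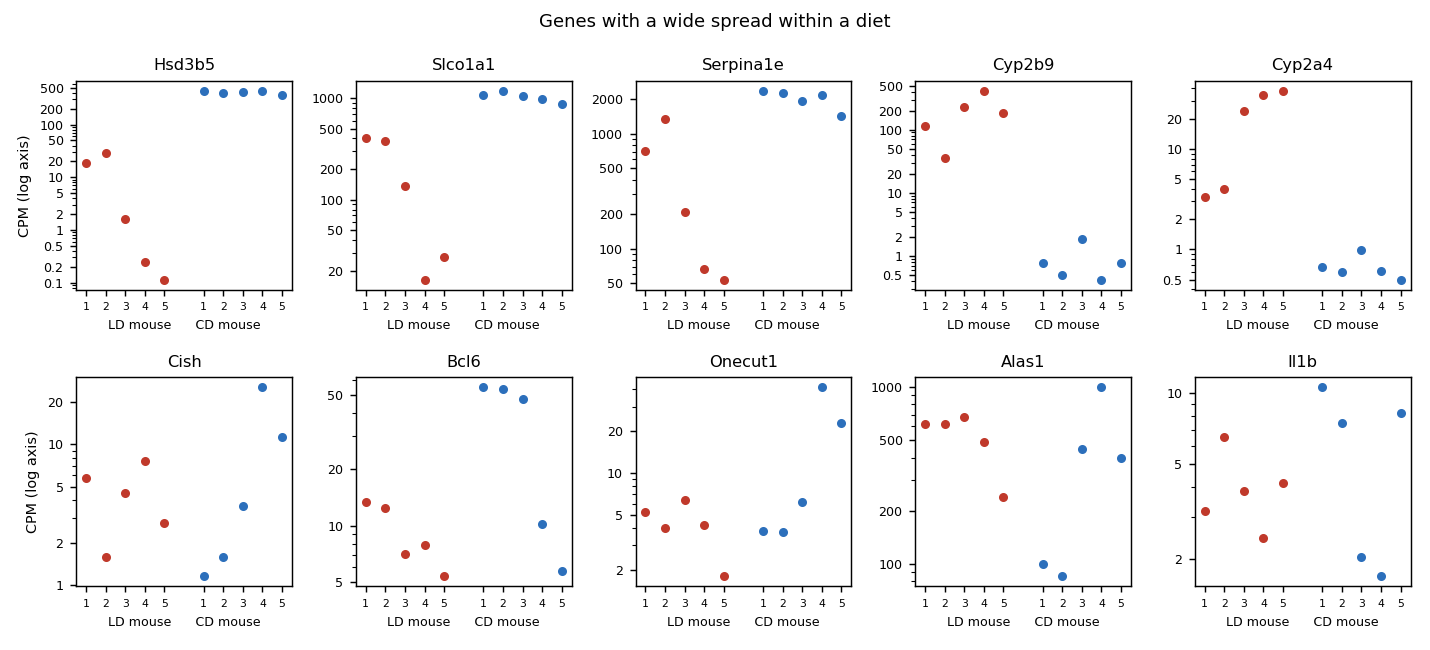
CPM (log axis) in each of the 5 LD mice (red) and 5 CD mice (blue) for 10 genes with a wide spread within a diet. Hsd3b5 runs from 0.112 to 29.2 CPM on LD, and Cish from 1.15 to 25.6 CPM on CD.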

How the data were processed

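Liver RNA of 5 LD and 5 CD mice was sequenced as read pairs after ribosomal depletion. The authors aligned the reads to mm9 with STAR 2.5 and made the deposited count of reads per RefSeq gene with featureCounts 1.5.0-p1 by strand. The deposited TPM values were made by the authors from these genes, with lengths not given in the sources used here. A number in the heading of 1 CD column of the TPM table matches no replicate, so TPM values of CD mice are given by diet only. The authors' fold changes and p-values in that table were not used. H3K27ac loci are those the authors deposited per sample, in mm9. They were matched to mm9 start sites, and promoter sequences come from GRCm38.p6, whose coordinates were not combined with them.

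Of 25494 rows, 7228 had no count and 13494 passed edgeR's filterByExpr. Counts were scaled by TMM and tested with edgeR 4.0.16 (quasi-likelihood, robust fit) in R 4.3.3. The SE is the fold change over the square root of F. DESeq2 1.42.0 and limma 3.58.1 gave alternatives, as did other filters, scalings and edgeR options, and the fit was repeated without each mouse. On simulated counts for LD against CD with 200 of 13494 rows changed, edgeR called 37 of 50 at 1.5-fold, 48 of 50 at 2-fold and 12 false rows. Mice were treated as the replicates; the labels name a separate sample for each.

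The lists and genes were chosen with earlier results of these data known. Named genes are, by rule, the 15 most abundant transcripts, the 8 largest gains and losses of TPM, up to 3 called members at each end of a list with a mean of at least 1 CPM, the 8 lowest p-values per direction and the 10 largest SDs per diet among rows with a mean of at least 5 CPM, the extremes of a named family and the 8 lowest p-values for spread. Ccr2, Cd68, Cdc20, Cdk1, Clec4f, Fabp5, Hspa5, Igf1, Krt8, Mcm6, Mt1, Socs2, Top2a, Tubb2a and the genes named for H3K27ac on a single diet fall outside it in part and were chosen after their values were seen. Some genes that the rule gives are not reported here.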

Additional observations from a re-analysis of the deposited data

Results flagged for a closer look

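In 116 groups of 5 mice, the mouse at 1 end was compared with its nearest neighbor, and a gap of over 0.71 of the group's range was taken as standing apart. Of the groups, 9 did. Most of the groups were of genes named in the text, some of them chosen for a wide spread. A rate of about 1 in 20, which holds for groups not chosen in that way, is therefore no measure for these 9. LD mouse 2 stood apart for S100a8 (26.4 CPM) and S100a9 (38.5 CPM), as did LD mouse 1 for Saa1 (115 CPM). CD mouse 3 stood apart for Cyp2b9 (1.87 CPM) and Gnmt (1452 CPM), CD mouse 4 for Mt1 (16.2 CPM) and Tubb2a (28.9 CPM), and CD mouse 1 for Rpl27a (178 CPM) and Ccnb1 (0.701 CPM).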

How the results depend on the processing

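Of the 1859 rows higher and 1498 lower on LD, 919 and 459 passed when the change was tested against 1.2-fold. Limma on log2(TPM + 1) gave 740 lower and on log2(TPM + 0.1) 778, with 2227 and 2330 higher, and moved the median of all rows from -0.00187 to 0.056 and 0.071. DESeq2 gave 1980 and 1652, and 99.5% of the edgeR calls were among them. Without 1 mouse the counts were 1631 to 1890 and 1202 to 1595. In none of these fits was a called row called in the opposite direction. Options of the edgeR fit tried after seeing the data (no robust option, the bias-adjusted fit with and without it or the dispersion step) gave 1871 to 1885 higher and 1515 to 1532 lower, and the fit with the fewest calls among them was the one reported. The replicate numbers do not pair the mice (correlations of -0.078 to 0.19), and with a replicate block 1818 and 1355 were called. The difference in the top-10 share was -1.52 points in raw counts, where it passed, and -2.05 to -1.24 without 1 mouse. Rows with a different spread numbered 0 to 68 without 1 mouse. With 2 of 3 H3K27ac samples required, 2.96% of rows called higher had a locus on LD alone, as had 1.04% of all tested rows and 0.334% of those called lower. Medians of 9 lists changed sign under some alternative, none of them above 0.3 in size. The causes were not tested. Depth as such was not varied.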
